A study of Rattus norvegicus with 12 samples.

Results

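Early pituitary transcription factors and genes that mark pituitary stem and folliculostellate cells were read in the anterior pituitary of male rats exposed to diethylstilbestrol (DES), a synthetic estrogen. The members were 8 named genes, *Pitx1*, *Lhx3*, *Hesx1*, *Isl1*, *Sox2*, *Sox9*, *S100b* and *Aldh1a1*, and every probe set whose platform symbol was exactly 1 of these names was taken. Probe sets under these names were used for 5 of the 8 genes, of 14217 genes in all, with 9 probe sets between them. *Lhx3*, *Hesx1* and *Sox9* were not analysed here. No member differed between lines at an adjusted p under 0.05, and the differences that came nearest were higher signals of *Aldh1a1* and *S100b* in Ept2. The Ept2 arrays also differed from the others in a control of RNA quality. With that control in the fit the log2 difference of *S100b* went from 0.54 to 0.21, and that of *Aldh1a1* from 0.79 to 0.90. Their standard errors in that fit were 0.25 and 0.38, and their adjusted p in limma 0.870 and 0.566. No other line reached the control values of Ept2, so that fit cannot separate the control from the line.

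The data are 12 one-colour expression arrays, 3 from each of 4 congenic lines named Ept1, Ept2, Ept6 and Ept9. Each line carries alleles of the Copenhagen (COP) strain at its *Ept* locus on the ACI background, on chromosome 6 in Ept1, chromosome 3 in Ept2 and Ept6, and chromosome 10 in Ept9. All 12 arrays share the treatment, which was a subcutaneous implant of 5 mg DES placed at 9 weeks of age and kept for 12 weeks, until 21 weeks, and an injection of BrdU at 50 mg/kg given 4 h before the end. No untreated and no ACI array was analysed here, so a line is compared here with the average of the other 3, and these comparisons share arrays. The labels conflict on replication, since the series description counts 3 biological replicates in a line and the sample notes count 3 males that gave fewer independent replicates, so that p-values may measure spread that is partly technical.

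In the embryo the anterior pituitary forms from an epithelial pouch of the oral roof, in which PITX, LIM homeodomain and HESX factors act before the hormone cell types appear. In the adult gland a small population of SOX2-positive cells, in part overlapping with S100B-positive folliculostellate cells, keeps the capacity to give rise to endocrine cells. Folliculostellate cells form no hormone granules and connect the endocrine cells in a network. ALDH1A1 oxidises retinaldehyde to retinoic acid, a signal used in pituitary development.

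The promoters of *Sox2*, *S100b* and *Aldh1a1* are shown because the differences between lines described here rest on these 3 genes. RefSeq entries of the GRCr8 assembly matched 6 of the 8 genes by symbol, and each run below is the 250 bases before the annotated start, read 5′ to 3′ along the gene's strand. Capitals mark the letters ATTGT, the core bound by SOX proteins, and TAAT, the core bound by homeodomain proteins, on either strand (ACAAT and ATTA on the opposite strand).
*Sox2* promoter, chr2:119464881-119465130, plus strand: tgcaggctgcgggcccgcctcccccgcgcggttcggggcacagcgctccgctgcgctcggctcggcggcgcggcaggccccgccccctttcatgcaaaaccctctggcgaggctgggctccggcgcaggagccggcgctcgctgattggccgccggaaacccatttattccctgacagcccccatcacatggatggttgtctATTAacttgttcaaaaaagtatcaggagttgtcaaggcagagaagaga
*S100b* promoter, chr20:12381082-12381331, minus strand: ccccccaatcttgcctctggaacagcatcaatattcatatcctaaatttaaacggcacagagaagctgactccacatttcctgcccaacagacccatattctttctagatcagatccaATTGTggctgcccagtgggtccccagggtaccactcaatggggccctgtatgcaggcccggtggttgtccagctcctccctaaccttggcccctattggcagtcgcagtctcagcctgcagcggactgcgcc
*Aldh1a1* promoter, chr1:227537370-227537619, plus strand: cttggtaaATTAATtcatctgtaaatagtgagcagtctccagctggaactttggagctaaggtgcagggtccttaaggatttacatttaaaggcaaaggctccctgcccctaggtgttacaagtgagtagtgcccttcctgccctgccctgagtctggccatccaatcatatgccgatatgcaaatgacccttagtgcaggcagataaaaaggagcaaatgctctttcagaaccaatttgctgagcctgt

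The *Sox2* window held 1 TAAT match, at position -48 from the start, and no ATTGT match. The *S100b* window held 1 ATTGT match, at -132, and no TAAT match. The *Aldh1a1* window held 2 TAAT matches, at -242 and -240, which overlap each other because ATTAAT reads as TAAT on both strands. Of the 33469 promoters of this length, 57% held TAAT and 30% held ATTGT, so that single matches of this kind were common. The PITX-type letters TAATCC, which contain TAAT, were in 6.34% of promoters and in none of these 3. The nuclear receptor half-site letters AGGTCA (14.1% of promoters) and the TATA box letters TATAAA (12.9%) were not in these 3 windows either. The *Sox2* window was rich in G and C at 64.4%, against 54.8% for *S100b*, 46.4% for *Aldh1a1* and a median of 51.2% over all promoters.

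Of the 5 measured genes, *Pitx1* lies on chromosome 17, *Isl1* and *Sox2* on chromosome 2, *S100b* on chromosome 20 and *Aldh1a1* on chromosome 1. None of these is a chromosome that carries a COP segment in the 4 lines. The tissue label was borne out by the hormone genes, with *Prl*, which encodes prolactin, at 41979 to 51767 on every array, and *Gh1* and *Cga* at 27923 and above. The probe set of *Pomc*, the corticotropin precursor gene, was under the dim filter by its mean, at 10.6 to 151.9. Signals are in arbitrary units on a linear scale, and levels are compared between arrays for 1 probe set and not between genes. A change of signal in whole tissue cannot tell apart fewer cells of a type and less RNA per cell.

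**Figure D1:**
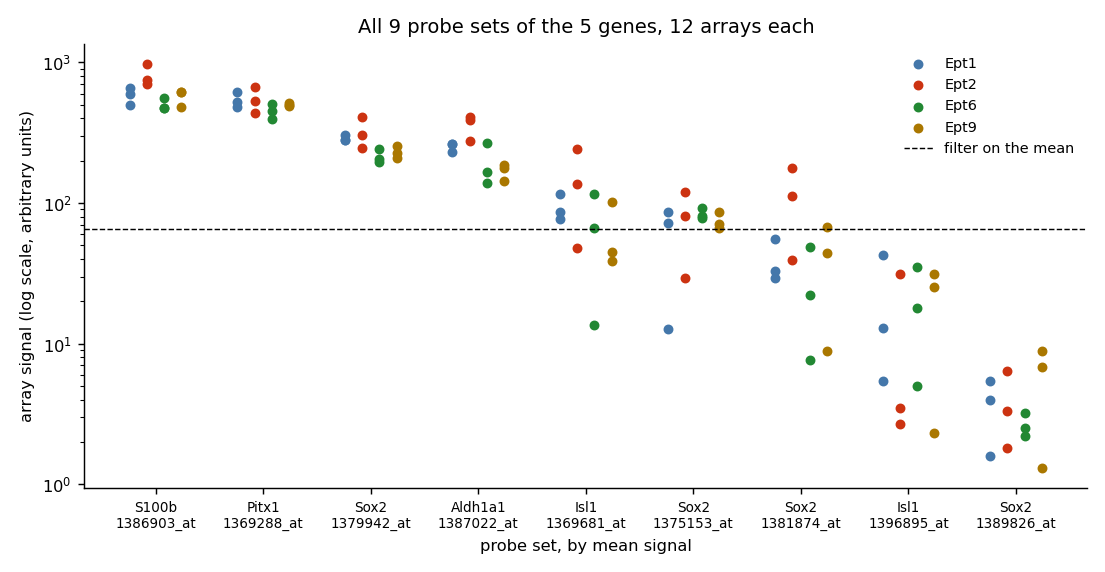
Signal (log scale, arbitrary units) of all 9 probe sets of the 5 measured genes on the 12 arrays, with points coloured by line, ordered by mean signal. The dashed line is the signal of 65.2 under which a probe set's mean was called dim, and 6 of the 9 probe sets lie above it by their mean.

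Of the 9 probe sets, 6 passed the filter on dim signal, a mean log2(signal + 16) at the 40th percentile of all probe sets, equal to a signal of 65.2. At least 1 probe set of each of the 5 genes passed. The 3 that did not pass were 1 of 2 for *Isl1* (1396895_at, 2.3 to 42.6) and 2 of 4 for *Sox2* (1381874_at, 7.6 to 176.4, and 1389826_at, 1.3 to 8.8). The passing probe sets of *S100b*, *Pitx1*, *Sox2* (1379942_at) and *Aldh1a1* lay above 65.2 on all 12 arrays. *Isl1* 1369681_at was under 65.2 on 4 of 12 arrays and *Sox2* 1375153_at on 2 of 12.

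Taking the patterning factors first, *Pitx1* encodes a bicoid-type homeodomain protein present from the earliest oral ectoderm and kept in endocrine cells of the adult gland. Its probe set 1369288_at gave 614.5, 478.8 and 526.6 in Ept1. In Ept2 it gave 673.4, 433.3 and 527.7. In Ept6 it gave 453.8, 508.8 and 392.9, and in Ept9 495.6, 487.4 and 516.3. All 4 lines overlapped, and the highest and the lowest array were Ept2 replicate 1 and Ept6 replicate 3. The Ept6 mean was 451.8 ± 58.0, against a mean of 528.2 in the other 3 lines (SD, n = 3 arrays), a log2 difference of -0.21 with a standard error of 0.13 (limma, adjusted p = 0.578). The 4 lines together gave an adjusted p of 0.697 in limma's moderated F test, and an exact permutation test over the 15400 ways to divide 12 arrays into 4 lines gave p = 0.433. By mean log2 signal the order was Ept1, Ept2, Ept9, Ept6, and no neighbours in it differed beyond their spread.

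*Isl1* encodes a LIM homeodomain protein of the early pouch and, later, of cells that make the glycoprotein hormones. Probe set 1369681_at gave 76.9, 86.8 and 115.6 in Ept1 and 243.6, 48.1 and 136.4 in Ept2. It gave 66.9, 116.1 and 13.6 in Ept6 and 38.6, 100.9 and 44.8 in Ept9. Ept2 held both the 2 brightest arrays and 1 of the dim ones, so its mean of 142.7 ± 97.9 had a spread larger than its distance from the mean of 73.4 in the other 3 lines. The log2 difference of Ept2 was 0.74 with a 95% interval of -0.31 to 1.79 (limma, adjusted p = 0.515), and the interval reached fold changes in both directions. The adjusted p among the 4 lines was 0.659.

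*Sox2* encodes the HMG-box factor that marks pituitary stem cells. Its brightest probe set, 1379942_at, gave 278.9, 302.2 and 281.0 in Ept1 and 407.1, 245.1 and 302.2 in Ept2. It gave 204.0, 240.3 and 195.2 in Ept6 and 255.1, 226.1 and 208.6 in Ept9. All Ept1 arrays lay above all Ept6 and all Ept9 arrays, and all Ept2 arrays lay above all Ept6 arrays. Ept2 averaged 318.1 ± 82.2, against 243.5 in the other 3 lines, a log2 difference of 0.35 with a standard error of 0.13 (limma, unadjusted p = 0.0208, adjusted p = 0.248, exact permutation p = 0.0591). Ept6 averaged 213.2 ± 23.9, against 278.5 in the other 3 lines, a log2 difference of -0.34 (unadjusted p = 0.0226, adjusted p = 0.4, exact permutation p = 0.0636). The adjusted p among the 4 lines was 0.272 (exact permutation p = 0.0331, not adjusted). The order of lines was Ept2, Ept1, Ept9, Ept6. Between neighbours in it the unadjusted p was 0.0799 or more, the lowest for Ept1 against Ept9, whose arrays did not overlap. With the *Gapdh* 3′ minus 5′ difference, a measure of RNA quality, as a covariate, the log2 difference of Ept2 was -0.14 (adjusted p = 0.907).

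Probe set 1375153_at ran from 12.8 to 120.1, with Ept6 highest at 83.9 ± 7.89 and Ept1 lowest at 56.8 ± 38.7, and its adjusted p among the 4 lines was 0.80. Its log2 difference in Ept2 was 0.03, with a 95% interval of -0.81 to 0.86 that contains the 0.35 of the brighter probe set. The dim probe set 1381874_at gave 176.4, 39.3 and 113.0 in Ept2, against 7.6 to 67.8 in the other 3 lines, and was left out of the limma fit because its mean was under the filter. Its log2 difference in Ept2 was 1.24 (exact permutation p = 0.0364, not adjusted), and its highest arrays were Ept2 replicates 1 and 3. By mean log2 signal its lines stood in the same order as those of 1379942_at. By mean signal Ept9 (40.2) lay just above Ept1 (39.2). The dimmest, 1389826_at, stayed under 9 on every array.

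*S100b* encodes a calcium-binding protein that marks folliculostellate cells in the anterior lobe and glia elsewhere. Probe set 1386903_at gave 971.1, 703.7 and 751.3 in Ept2. The other lines gave 499.9, 656.3 and 594.8 (Ept1), 474.2, 559.6 and 472.1 (Ept6), and 612.4, 616.0 and 479.2 (Ept9). All 3 Ept2 arrays lay above the 9 other arrays, the highest of which was 656.3. Ept2 averaged 808.7 ± 142.6, against 551.6 in the other 3 lines, a log2 difference of 0.54 with a standard error of 0.13 and a 95% interval of 0.26 to 0.81. The unadjusted p was 0.0014 and the adjusted p over all probe sets was 0.0955 in limma, short of the threshold of 0.05. The exact permutation test over the 220 choices of 3 arrays gave p = 0.00455, the smallest it can give. With the *Gapdh* covariate the log2 difference was 0.21 (adjusted p = 0.870). Ept6 was the lowest line at 502.0 ± 49.9, against 653.9 in the other 3 lines, with a log2 difference of -0.35 (unadjusted p = 0.0187, adjusted p = 0.379). In the order Ept2, Ept1, Ept9, Ept6, only the step between Ept2 and Ept1 had an unadjusted p under 0.05 (0.0133, adjusted p = 0.358).

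*Aldh1a1* gave the largest difference among the members that lay above 65.2 on all arrays. Probe set 1387022_at gave 390.0, 276.3 and 407.9 in Ept2. The other lines gave 261.7, 229.0 and 262.4 (Ept1), 268.2, 139.8 and 166.3 (Ept6), and 142.4, 176.4 and 185.6 (Ept9). Again all 3 Ept2 arrays lay above the 9 others, though Ept2 replicate 2 was only just above the highest Ept6 array. Ept2 averaged 358.1 ± 71.4, against 203.5 in the other 3 lines, a log2 difference of 0.79 with a standard error of 0.17 and a 95% interval of 0.40 to 1.17. The adjusted p was 0.0809 in limma and the exact permutation p was 0.00455. At the other end Ept9 averaged 168.1 ± 22.8, against 266.8 in the other 3 lines, a log2 difference of -0.56 (unadjusted p = 0.00864, adjusted p = 0.247). The order was Ept2, Ept1, Ept6, Ept9, and every Ept1 array lay above every Ept9 array. The step between Ept2 and Ept1, a log2 difference of -0.47 for Ept1 minus Ept2, had an unadjusted p of 0.0515, and the other neighbours lay closer.

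**Figure D2:**
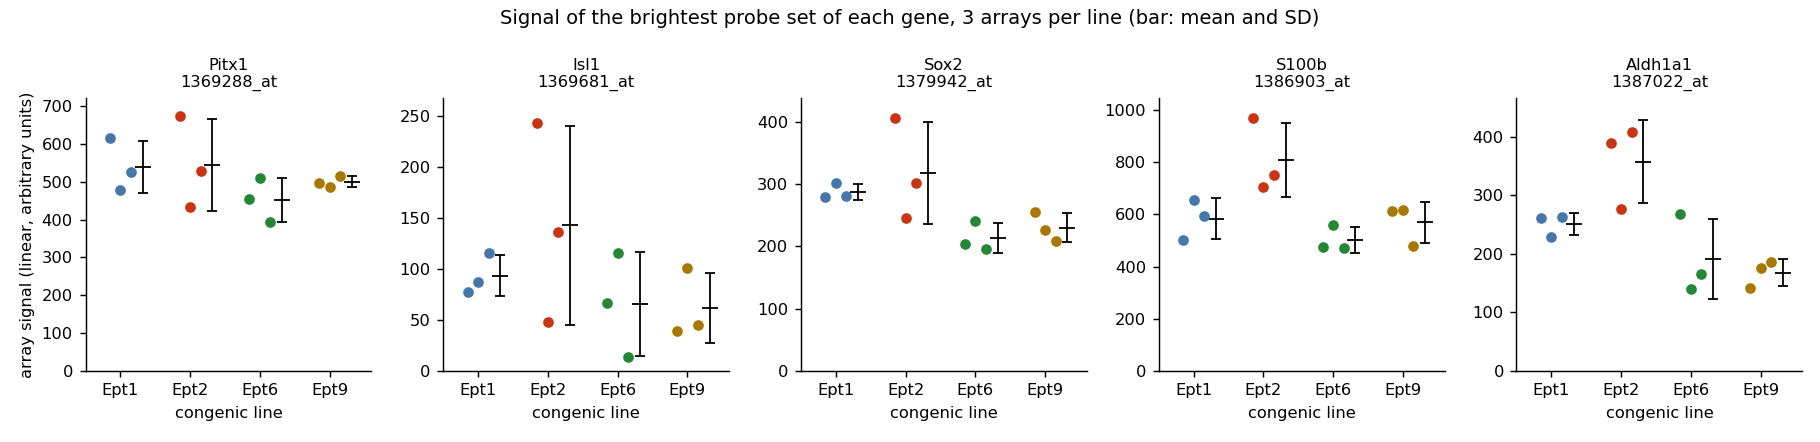
Array signal (linear, arbitrary units) of the brightest probe set of each measured gene in the 4 lines; points are arrays and the bar beside them is the mean with its SD (n = 3). Ept2 arrays lie above all others for *S100b* and *Aldh1a1*, and overlap with other lines for *Pitx1*, *Isl1* and *Sox2*.

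Across the 6 tested probe sets, 0 were called among the 4 lines at an adjusted p under 0.05 by limma, where 0.994% of all 18607 tested probe sets were. At an unadjusted p under 0.05 the F test picked 3 of the 6, *Sox2* 1379942_at, *S100b* and *Aldh1a1*, where it picked 14.1% of all. In single lines the members gave 0 calls as well, where 0.193% of all probe sets were called in Ept1, 0.801% in Ept2, 0.161% in Ept6 and 0.683% in Ept9. At an unadjusted p under 0.05 Ept2 was higher for the same 3 of 6 (7.17% of all), Ept6 was lower for *Sox2* and *S100b*, 2 of 6 (5.35% of all), and Ept9 was lower for *Aldh1a1*, 1 of 6 (6.67% of all). In Ept1 the unadjusted p was under 0.05 for 0 of the 6. The median log2 difference of the 6 was 0.44 in Ept2, -0.35 in Ept6, -0.16 in Ept9 and 0.14 in Ept1, beside medians of all tested probe sets between -0.01 and 0.01. All 3 Ept2 arrays lay above the 9 others for 2 of the 6, and for 1.92% of all tested probe sets. Of the 36 comparisons of 1 line with 1 other line, 9 had an unadjusted p under 0.05, where 10.8% of such comparisons over all probe sets did, and none an adjusted one, the lowest being 0.0655 for *Aldh1a1* in Ept2 against Ept9, a log2 difference of 1.01.

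**Figure D3:**
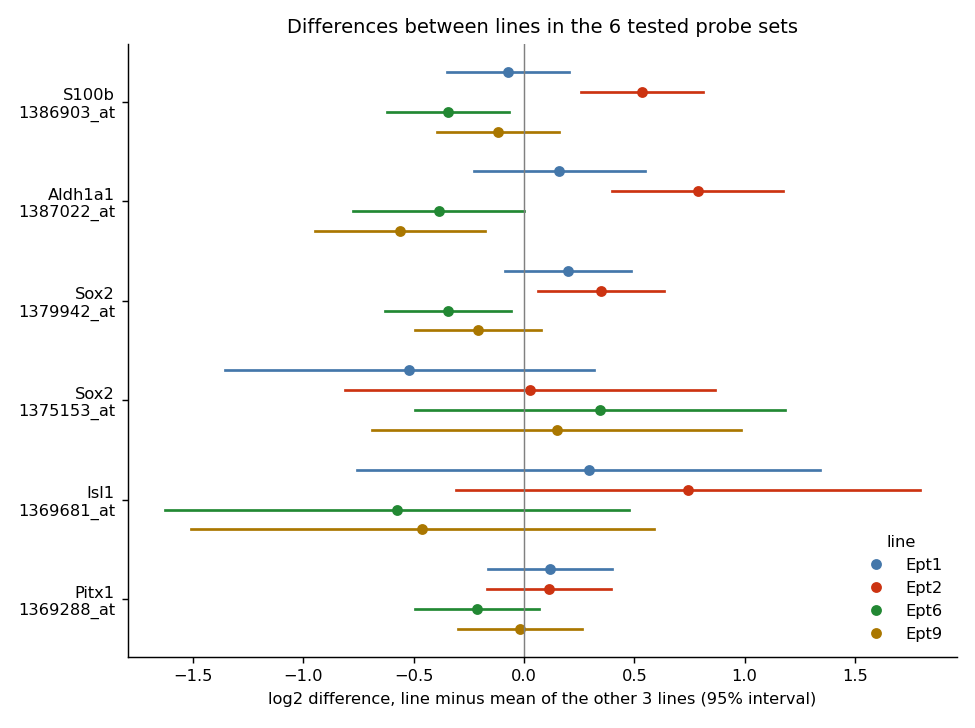
Log2 difference of each line from the mean of the other 3 lines, with its 95% interval from limma, for the 6 probe sets that passed the filter. The intervals of Ept2 lie above 0 for *S100b*, *Aldh1a1* and *Sox2* 1379942_at, and those of *Isl1* and *Sox2* 1375153_at span 0 widely in every line.

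The same arrays stood at the ends for most members. Ept2 replicate 1 was the highest of the 12 arrays for *Pitx1*, *Isl1*, *Sox2* and *S100b*, 4 of the 5 genes, and Ept2 replicate 3 was the highest for *Aldh1a1*. Ept6 replicate 3 was the lowest for *Pitx1*, *Isl1*, *Sox2* and *S100b*. Without Ept2 replicate 1 the remaining Ept2 arrays averaged 727.5 for *S100b*, both above the highest other array at 656.3, and 342.1 for *Aldh1a1*, both above 268.2. For *Sox2* the remaining mean was 273.7, against 243.5 in the other 3 lines, and for *Pitx1* it was 480.5, against 497.2.

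Over the 12 arrays the brightest probe sets rose and fell together to different degrees, computed for 10 pairs of genes. Their permutation tests moved arrays freely between lines, so the p-values also take in differences between line means. Correlations within lines were not tested. *Sox2* and *S100b* had a Pearson r of 0.843 and a Spearman rho of 0.792 (permutation test, p = 0.00087 and 0.00272, adjusted over the 10 pairs 0.0087 and 0.0272). The relation remained at r = 0.831 after each line's mean was taken out, and at r = 0.620 without the 2 arrays farthest from the median of *Sox2*, Ept2 replicate 1 and Ept6 replicate 3. *Pitx1*, *Isl1* and *Sox2* had r between 0.755 and 0.771 with one another, which fell to between 0.309 and 0.460 without those 2 arrays. Leaving out arrays at the ends narrows the range, which can lower r by itself. Within lines these r were 0.69 to 0.74. Over all arrays the adjusted p of r was 0.0137 to 0.0139 (permutation test). Spearman rho over all arrays was 0.64 to 0.67 (permutation test, adjusted p = 0.0683 for each). *Isl1* and *S100b* had r = 0.680 and rho = 0.608 (permutation tests, adjusted p = 0.0292 and 0.0804), and r = 0.298 without the same 2 arrays. *Aldh1a1* went with *S100b* at r = 0.588 over all arrays and at -0.178 within lines, and with *Sox2* at 0.641 and 0.039. Over all arrays the adjusted p of these r was 0.0621 and 0.0383, and that of rho 0.130 for each (permutation tests). The 2 passing *Sox2* probe sets had an r of -0.077 with each other.

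The genes whose log2 signal was most like that of a member, by Pearson r over the 12 arrays among 14474 probe sets with 1 gene symbol, were taken as the top 2 for each gene. For *Aldh1a1* these were *Neto2* (0.951) and *Ift88* (0.891), which encodes a protein of intraflagellar transport. For *S100b* they were *Rsph9* (0.942), which encodes a radial spoke head protein of cilia, and *Mreg* (0.930). For *Sox2* they were *Cyp27a1* (0.930), which encodes sterol 27-hydroxylase, and *Ahi1* (0.926), which encodes a protein of the base of the primary cilium. For *Pitx1* they were *Chl1* (0.928), a neural cell adhesion gene, and *Hspa4l* (0.919), and for *Isl1* *Amigo2* (0.912) and *Ptprd* (0.900). After each line's mean was taken out, r was 0.617 for *Ift88*, 0.796 for *Mreg*, 0.83 for *Rsph9* and 0.860 for *Neto2*. For the others it was 0.883 to 0.915. These are the top of a long ranking and are given as a description.

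Other values of the Ept2 arrays are given beside these results. The log2 signal of the 3′ *Gapdh* control probe set minus that of the 5′ control, which grows as RNA is shortened, was 0.40, 0.31 and 0.42 on the Ept2 arrays, against 0.09 to 0.28 on the 9 others. Other controls of this kind overlapped between lines. For *Actb* the difference was 1.76, 1.85 and 1.81 in Ept2, against 1.49 to 1.79 on the 9 others. For hexokinase it was 1.84, 1.31 and 1.46 in Ept2, against 0.71 to 1.64. Markers of the posterior lobe, nerve and glia, 12 of 14 measured, had a summed signal of 2965, 3211 and 4057 in Ept2, against 2747 to 3307 in the other 3 lines, with the highest in Ept2 replicate 1. In that list *Avp*, *Oxt*, *Rax*, *Mog*, *Sox10* and *Col25a1* were below the filter, and *Mbp*, *Nefm* and *Cnp* passed it. With the *Gapdh* difference as a covariate *Aldh1a1* in Ept2 had a log2 difference of 0.90 (adjusted p = 0.566), while those of *S100b* and *Sox2* were smaller or turned, as given with each gene. The standard errors in Ept2 rose from 0.13 to 0.25 for *S100b* and from 0.17 to 0.38 for *Aldh1a1*. Since no other line reached the *Gapdh* values of Ept2, this fit cannot separate the control from the line. Endothelial markers, 7 of 8 measured, summed to 3401, 4059 and 4074 in Ept2, against 2953 to 3522 in the other 3 lines. Hormone and lineage genes stood higher in Ept2 at an unadjusted p under 0.05 for 7 of 14 tested (7.17% of all probe sets), namely *Gh1*, *Cga*, *Tshb*, *Lhb*, *Fshb*, *Neurod1* and *Nr5a1*, of which *Neurod1* alone was called after adjustment. Cell cycle genes stood lower in Ept2 for 4 of 10 (7.21% of all), namely *Mki67*, *Ccnb1*, *Ccna2* and *Bub1*, of which *Bub1* alone was called. The part of RNA quality and of these cell types in the Ept2 differences was not tested beyond this covariate fit.

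**Figure D4:**
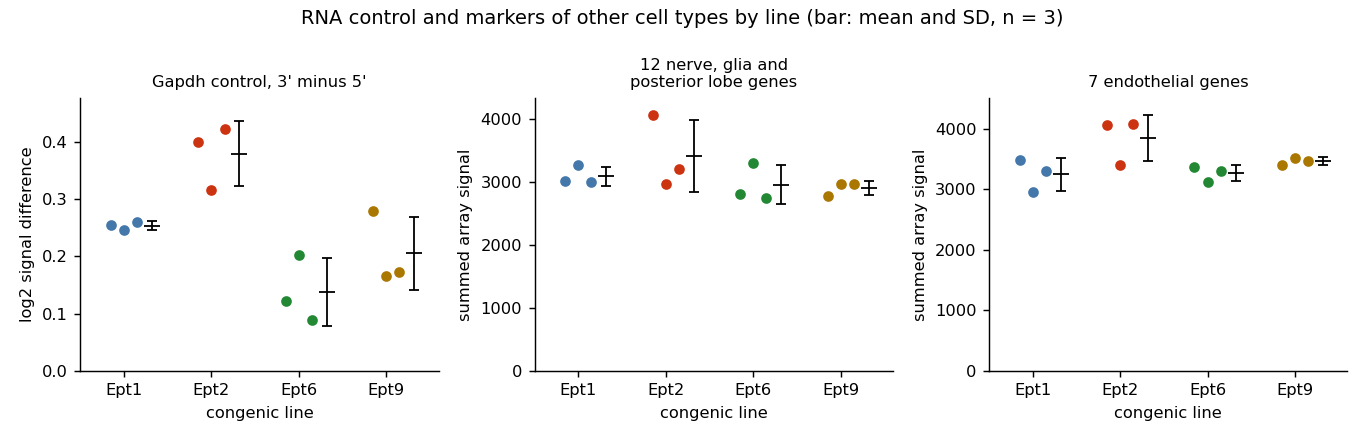
Left, log2 signal of the 3′ *Gapdh* control minus that of the 5′ control; middle and right, summed signal of 12 posterior lobe, nerve and glia genes and of 7 endothelial genes; points are arrays and bars are mean and SD (n = 3). Ept2 arrays lie at 0.31 to 0.42 on the left, above the 9 others, and overlap with other lines in both sums.

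The other patterning factors of the pouch gave no calls either. Of 25 listed, 21 were measured here, 15 passed the filter and 0 were called in any line by limma; at an unadjusted p under 0.05 the counts were 1 in Ept1, 2 in Ept2, 0 in Ept6 and 1 in Ept9, of 15, where the shares of all probe sets were 7.49%, 14.4%, 10.7% and 11%. The median log2 difference of the list in Ept2 was 0.15, beside 0.01 over all tested probe sets. Signals ran from 12916 to 15733 for *Ctnnb1*, encoding beta-catenin, from 5279 to 6420 for *Six6*, a homeobox gene of the pituitary and eye, and from 4732 to 5621 for the corepressor gene *Tle4*. *Eya1*, a cofactor of *Six6* and its relatives, had a log2 difference of 0.53 in Ept2 (unadjusted p = 0.0022), named here after its value was seen. *Lhx4*, *Lhx2*, *Six3*, *Sox3*, *Sox11* and *Otx2* were below the filter.

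Signals that act on pituitary progenitors gave 0 calls as well. Of 22 listed genes of Notch, Wnt, Hedgehog, BMP and FGF signalling, 20 were measured and 11 tested, with unadjusted p under 0.05 for 0 in Ept1, 2 in Ept2, 3 in Ept6 and 4 in Ept9, against the same shares of all probe sets. *Dlk1*, encoding a transmembrane protein of the Notch ligand family, ran from 1442 to 5006 over the 12 arrays, *Wnt4* from 1397 to 2436 and *Fgfr1* from 1542 to 1985. The median log2 difference of the list was 0.12 in Ept2 and -0.20 in Ept9.

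Among other genes of folliculostellate and stem cells, 33 of 36 were measured and 25 were tested. By limma 1 was called among the 4 lines, where 0.994% of all probe sets were, and 2 in Ept9, where 0.683% were. At an unadjusted p under 0.05 the counts were 5 in Ept1, 7 in Ept2, 5 in Ept6 and 6 in Ept9, of 25. The shares of all probe sets, in either direction, were 7.49%, 14.4%, 10.7% and 11%. All 5 in Ept1 and all 5 in Ept6 were lower (5.35% of all probe sets in Ept6). All 7 in Ept2 were higher (7.17% of all), as were 5 of the 6 in Ept9 (4.35% of all). *S100a6*, a relative of *S100b* in the same family of calcium-binding proteins, differed among the 4 lines (adjusted p = 0.0405, limma F test). It gave 1816.4, 1787.7 and 2045.2 in Ept2 and 1743.2, 1597.2 and 2368.0 in Ept9, while Ept1 gave 1222.1, 909.3 and 1076.7 and Ept6 gave 819.5, 1201.2 and 968.3. The Ept2 and Ept9 arrays lay above all Ept1 and Ept6 arrays, whereas *S100b* in Ept9 overlapped with Ept1 and Ept6. Each line's own difference missed the threshold, at 0.58 in Ept2 (adjusted p = 0.108) and -0.65 in Ept6 (adjusted p = 0.165).

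*Cxcr4*, encoding the receptor for the chemokine CXCL12, and *Krt19*, encoding an epithelial keratin, were higher in Ept9. *Cxcr4* gave 522.5, 320.7 and 464.4 in Ept9, against 173.4 to 279.5 in the other 3 lines, a log2 difference of 0.87 (adjusted p = 0.0446). *Krt19* gave 227.9, 160.4 and 196.1 in Ept9, against 64.7 to 136.9, a log2 difference of 0.98 (adjusted p = 0.0438). *Krt19* lies on chromosome 10, the chromosome of the Ept9 segment, and *Cxcr4* on chromosome 13. *Cd81* (11697 to 14078), *Clu* (10397 to 13957) and *Krt8* (3805 to 5001) were not called. Of other markers of these cells, *Vim* had a log2 difference of 0.01 in Ept2 (limma, unadjusted p = 0.940). That of *Anxa1* was 0.43 in Ept2, 0.42 in Ept9 and -0.66 in Ept6 (limma, unadjusted p = 0.0447, 0.0492 and 0.0052), none called. *Gfap* was below the filter. The median log2 difference of the 25 was 0.08 in Ept2, 0.15 in Ept9 and -0.12 in Ept6.

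Retinoid genes were read beside *Aldh1a1*. Of 18 listed, 16 were measured and 13 tested. *Rbp4*, encoding the plasma carrier of retinol, was higher in Ept9, at 1723.3, 1695.4 and 1612.1, against 1180 to 1390 in the other 3 lines, a log2 difference of 0.41 (adjusted p = 0.0314). That is the line in which *Aldh1a1* had its lowest mean. The sister enzymes *Aldh1a2* (69.6 to 223.9) and *Aldh1a3* (48.2 to 107.0) passed the filter, with log2 differences in Ept2 of 0.24 and -0.24 and adjusted p among the 4 lines of 0.949 and 0.708. *Cyp26a1*, which breaks down retinoic acid, had a log2 difference of 0.71 in Ept2 and -0.70 in Ept6 (unadjusted p = 0.0017 and 0.0018, adjusted p among the 4 lines 0.120). The median of the 13 was 0.22 in Ept2 and -0.20 in Ept6.

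**Figure D5:**
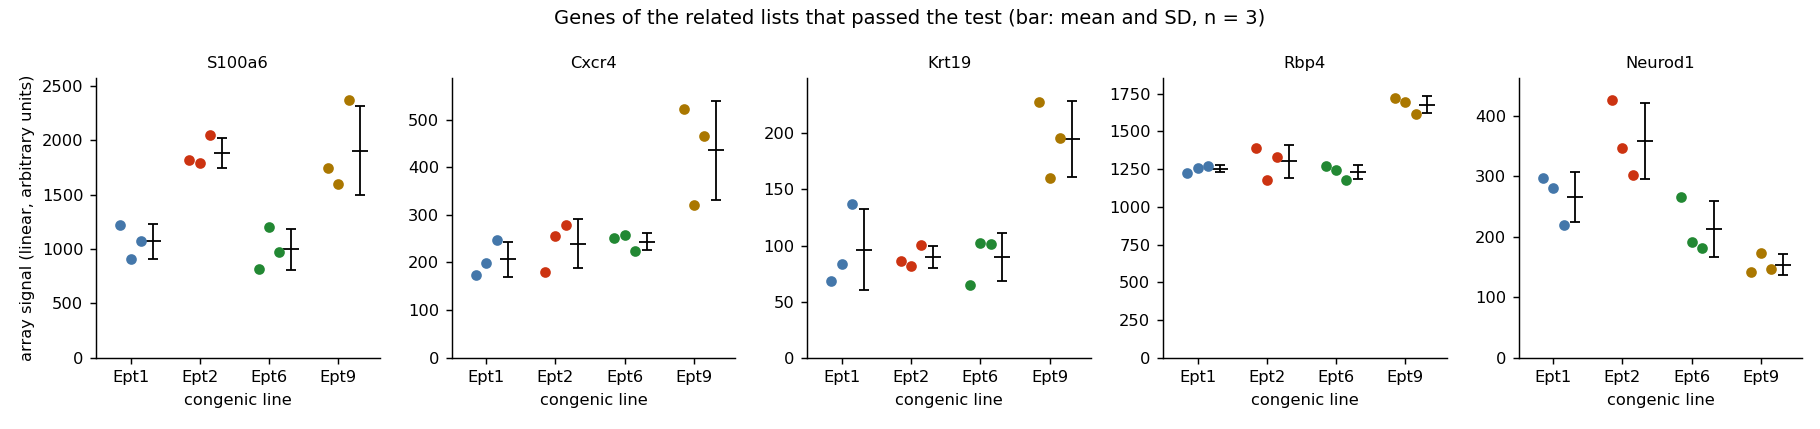
Array signal (linear, arbitrary units) of *S100a6*, *Cxcr4*, *Krt19*, *Rbp4* and *Neurod1* in the 4 lines; points are arrays and bars are mean and SD (n = 3). Ept9 arrays lie above all others for *Cxcr4*, *Krt19* and *Rbp4*, and Ept2 arrays above all others for *Neurod1*.

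The hormone and lineage list (14 of 18 tested), the melanotroph list (1 of 3) and the cell cycle list (10 of 10) held 3 further called genes. Of all probe sets 0.801% were called in Ept2 and 0.683% in Ept9. *Neurod1*, a basic helix-loop-helix factor of corticotrophs, was higher in Ept2, at 425.5, 347.6 and 301.8, against 141.3 to 297.9 in the other 3 lines (log2 difference 0.75, adjusted p = 0.0441). It was lower in Ept9, at 141.3, 173.6 and 146.5, against 182.3 to 425.5 (log2 difference -0.76, adjusted p = 0.0427). *Pcsk2*, a prohormone convertase of melanotrophs, was lower in Ept2, at 875.7, 1144.7 and 1026.8, against 1311 to 1857 (log2 difference -0.64, adjusted p = 0.0495). *Bub1*, a mitotic checkpoint kinase, was lower in Ept2, at 103.2, 98.7 and 114.8, against 139.6 to 248.5 (log2 difference -0.75, adjusted p = 0.0441). All 3 genes lie on chromosome 3, which carries the segments of both Ept2 and Ept6, and in Ept6 their log2 differences were -0.20 for *Neurod1*, 0.25 for *Pcsk2* and 0.10 for *Bub1*, none called. The endothelial, stromal, leukocyte, blood and posterior lobe lists held 0 calls in limma, with 2 of 6, 3 of 6, 2 of 7, 0 of 2 and 2 of 6 tested genes at an unadjusted p under 0.05 in Ept2 in either direction, where 14.4% of all probe sets were. The 7 called genes of all lists lay close to the threshold, and each of their 9 calls was lost in most of the fits that left out 1 array.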

How the data were processed

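Total RNA from anterior pituitary was labelled with biotin and hybridised to arrays, 1 per sample. The authors deposited linear intensity values (signals) for 31099 probe sets, scaled to a trimmed mean of 500.2 on every array. For the software and the background correction the sources used here name nothing. Any pair of arrays correlated at 0.959 to 0.970, none with identical values, and their number limits the precision.

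From these intensities log2(signal + 16) was computed without further scaling, so that fold changes of dim genes are understated. After 57 control probe sets and 12435 dim ones (mean under the 40th percentile) were left out, 18607 were tested with limma 3.58.1 in R 4.3.3, by its moderated F test for any difference among lines and its moderated test of a line minus the average of the other 3, with Benjamini-Hochberg adjustment over all tested probe sets in each comparison and a threshold of 0.05. Two-sided exact permutation tests over arrays stand beside it for the members, and correlations were tested with 100000 permutations (scipy 1.17.1). The platform table gives 20832 probe sets 1 symbol, 436 several symbols and 9831 no symbol. The fit was tested on simulated data. For a list gene with several probe sets the brightest was used. Genes named are all members, the 2 probe sets most like each, and from each list the called genes and some of its 3 brightest; other names were chosen after their values were seen. The members and lists were chosen with earlier results of these data known. Alternatives were other pseudocounts, scalings, filters and fits, a replicate block, a *Gapdh* covariate and leaving out each array. Some items of the lists are not reported here.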

Additional observations from a re-analysis of the deposited data

How the results depend on the processing

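For the members, limma gave 0 calls under most of the 22 alternative fits. The exceptions were a filter at the 60th percentile (2 probe sets in Ept2, *S100b* with adjusted p = 0.0440 and *Aldh1a1* with 0.0340, among 4 members left), an eBayes intensity trend (2 in Ept2, adjusted p = 0.0270 and 0.0278, and 1 among the 4 lines, *Aldh1a1* with 0.0402) and the fit without Ept6 replicate 1 (*Aldh1a1*, adjusted p = 0.0325 in Ept2 and 0.0414 among the 4 lines). Leaving out 1 array gave between 0 and 1 member calls in Ept2 and among the 4 lines. Over all alternatives the log2 difference in Ept2 ran from 0.21 to 0.63 for *S100b* (adjusted p 0.0270 to 0.870) and from 0.67 to 0.96 for *Aldh1a1* (adjusted p 0.0278 to 0.566).

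Of 512 refitted line differences of the members, 23 changed sign, all with an adjusted p above the threshold before and after. With the *Gapdh* covariate these were *Pitx1* in Ept2 (-0.27), Ept6 (0.086) and Ept9 (0.091), *Isl1* in Ept2 (-0.65) and Ept6 (0.52), and *Sox2* 1379942_at in Ept2 (-0.14) and Ept6 (0.045). Quantile normalization and median centring turned *Pitx1* in Ept9 (0.0071 and 0.028) and *Sox2* 1375153_at in Ept2 (-0.033 and -0.0088), and array quality weights turned the last as well (-0.29). Leaving out 1 array gave ranges that cross 0 for *Pitx1* in Ept2 (-0.046 to 0.26) and Ept9 (-0.067 to 0.036), *Isl1* in Ept6 (-1.05 to 0.031), *Sox2* 1375153_at in Ept1 (-0.86 to 0.052), Ept2 (-0.16 to 0.47) and Ept9 (-0.043 to 0.26), and *S100b* in Ept1 (-0.16 to 0.034).

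The 9 calls of list genes held in 5 to 11 of the alternative fits and in 0 to 3 of the 12 that left out 1 array, with no change of direction. Their adjusted p reached 0.236 for *Cxcr4* without Ept9 replicate 3, 0.214 and 0.147 for *Krt19* and *Rbp4* without Ept9 replicate 1, 0.211 for *Neurod1* in Ept9 without Ept9 replicate 3, and, with the *Gapdh* covariate, 0.180 for *S100a6*, 0.455 for *Neurod1* in Ept2, 0.786 for *Pcsk2* and 0.205 for *Bub1*.

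Counts over all probe sets moved more. In the order among the 4 lines, Ept1, Ept2, Ept6 and Ept9, no filter gave 53, 18, 32, 9 and 29 calls, and the eBayes trend gave 419, 73, 340, 105 and 217. The filter at the 60th percentile gave 282 among the 4 lines, 225 in Ept2 and 58 in Ept6. The *Gapdh* covariate gave 37 among the 4 lines, 0 in Ept2 (1604 at an unadjusted p under 0.05 in limma), 7 in Ept6 and 64 in Ept9. Array weights gave 98 in Ept2, and a pseudocount of 1 gave 16 in Ept6. Calls against each of the other 3 lines numbered 5, 12, 7 and 13. Leaving out 1 array gave 74 to 142 among the 4 lines, 12 to 33 in Ept1, 27 to 107 in Ept2, 11 to 30 in Ept6 and 29 to 126 in Ept9. With the replicate block the calls were 84 among the 4 lines, 16 in Ept1, 50 in Ept2, 14 in Ept6 and 40 in Ept9, and no member was called. The replicate numbers showed no pairing of the arrays. After each line's mean was taken out, 18 same-numbered pairs from different lines had correlations of -0.14 to 0.08. Pairs with other numbers had -0.10 to 0.11, and 4 of 12 arrays correlated best with their own number. With a gene's probe sets averaged, list medians in Ept9 moved to -0.09 for the Notch, Wnt, Hedgehog and FGF signals and to 0.10 for leukocyte markers. The scalings moved the median of all probe sets by at most 0.03. Probe sets near or under a signal of 65.2, *Isl1* and *Sox2* 1375153_at among them, had intervals too wide to show differences of the size seen for *S100b*. The causes of these changes were not tested.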
